A study of Mus musculus with 78 samples.

Results

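The 39 HOX genes of the mouse were followed in cartilage engineered in culture, which the study's title describes as chondrocytes derived from murine iPSCs (induced pluripotent stem cells). The members are the rows of the mRNA count table named Hoxa, Hoxb, Hoxc or Hoxd with a paralog number, 39 of 52459 named genes. They lie in 4 clusters: HOXA with 11 genes, HOXB with 10, HOXC with 9 and HOXD with 9. On GRCm38.p6 (mm10), in RefSeq's annotation, these are chr6:52155367-52260880, chr11:96194316-96368254, chr15:102921131-103036856 and chr2:74668225-74765142. The cytokine groups received 1 ng/mL IL-1beta or 20 ng/mL TNF-alpha, and each was collected at 4, 12, 24 and 72 h. Untreated control groups were collected at 0, 4, 12, 24 and 72 h. Every group had 3 mRNA and 3 small RNA libraries, marked a, b and c, which makes 78 libraries in 13 groups per assay. The mRNA column of control 0 h replicate b was left out because its values are misaligned with the gene names, so 38 mRNA libraries were used and the control at 0 h had 2. The labels give the tissue, the agent and the time, but no strain, cell clone or culture. Nor do they state that replicates came from separate cultures, so p-values measure only the spread between these libraries, which may be technical. These are bulk libraries, in which fewer cells of a type and less RNA per cell cannot be told apart.

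HOX genes encode homeodomain transcription factors that give cells of the embryo their position along the body axis and, in the limb bud, along the limb. In each cluster the genes are numbered in the order in which they lie, and low numbers are used toward the head (anterior) and high numbers toward the tail (posterior). The high-numbered genes of the HOXA and HOXD clusters are known for patterning the limb skeleton, with the highest numbers acting in the hand and foot. HOX proteins bind DNA together with TALE homeodomain cofactors, Polycomb proteins keep silent clusters closed, trithorax proteins keep active ones open, and retinoic acid can switch on the low-numbered genes. The clusters also hold the genes of the miR-10 and miR-196 families.

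The mRNA libraries held 11163263 to 68655350 counts and the small RNA libraries 4653364 to 17994498. Levels are given as CPM, counts per 1000000 after TMM scaling of library sizes, and levels of different genes are compared per kb of the gene length deposited with the counts. A gene was called where its adjusted p in edgeR's quasi-likelihood test was under 0.05, with Benjamini-Hochberg adjustment over all 18857 genes that passed a filter on low counts. Fold changes are log2 values with their standard error, the cytokine over the control of the same time unless stated otherwise. The IL-1beta 4 h replicate b and TNF-alpha 72 h replicate b libraries held only even counts, and results are given with these counts halved where that ended a call. Chondrocyte markers summed to 15444 to 155747 CPM over the libraries. Pluripotency markers summed to at most 0.549 CPM and skeletal muscle markers to at most 1.03 CPM. Between 8 libraries (IL-1beta at 4 h and the controls at 4 and 0 h) and the other 30, 34 of the 18857 tested genes had no overlap in values. No tested HOX gene was among them, which says little at so small a share. The libraries of TNF-alpha at 4 h lay on the side opposite to those of the control and of IL-1beta at 4 h. In the comparisons of TNF-alpha with either of these at 4 h, the cytokine and this split cannot be told apart.

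The posterior ends of HOXA and HOXD carried most of the HOX mRNA in this cartilage. In the 14 control libraries Hoxd13, a factor of the hand and foot, had the highest mean level of the family at 38.8 ± 8.58 CPM per kb (SD, n = 14). It was followed by Hoxa13 at 17.2 ± 1.99, Hoxa10 at 13.05 ± 1.58, Hoxa11 at 10.4 ± 1.75 and Hoxd8 at 7.33 ± 1.04 CPM per kb. Hoxa10 and Hoxa11 are known for the thigh and the lower leg, and their forelimb counterparts. A step below came Hoxa7 at 3.37, Hoxa9 at 3.07, Hoxd9 at 2.24, Hoxd10 at 2.20, Hoxd11 at 1.79, Hoxa6 at 1.33 and Hoxa5 at 1.11 CPM per kb. In the control at 12 h the 3 libraries of each of the 6 highest genes (Hoxd13, Hoxa13, Hoxa10, Hoxa11, Hoxd8 and Hoxa7) lay above all 3 libraries of the next gene in the order. Below them Hoxa9 overlapped with Hoxd9, Hoxd11 with Hoxd10 and Hoxa6 with Hoxa5.

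**Figure D1:**
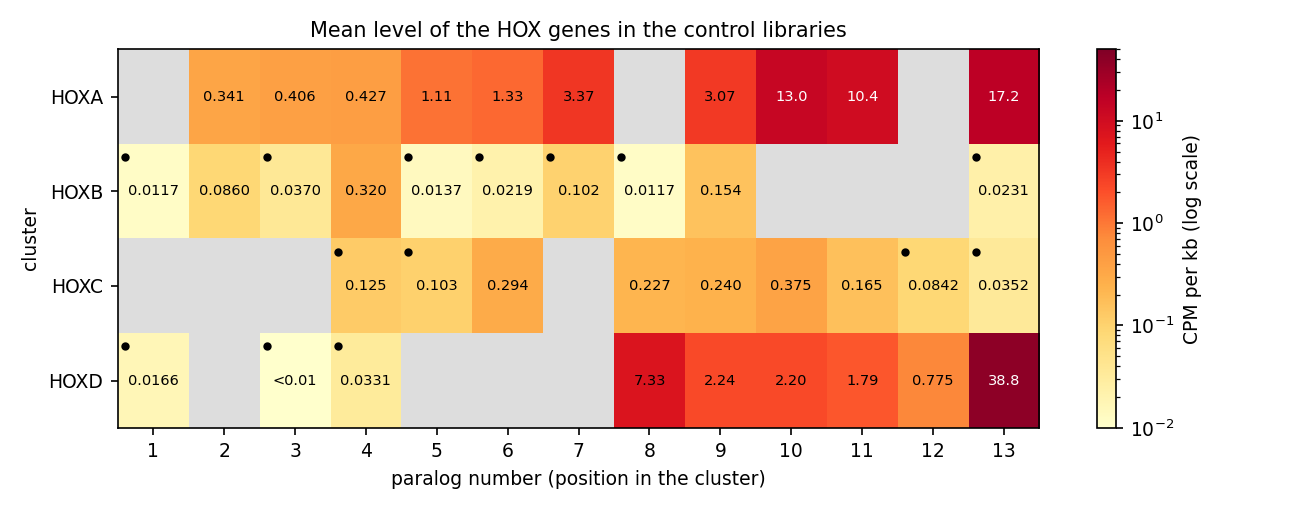
Mean level of each HOX gene in the 14 control libraries, in CPM per kb on a log colour scale, with clusters in rows and paralog numbers in columns. Grey fields are numbers with no gene in that cluster or a gene not reported here, and black dots mark the 14 genes that did not pass the filter on low counts. Hoxd13 at 38.8, Hoxa13 at 17.2, Hoxa10 at 13.05 and Hoxa11 at 10.4 CPM per kb have the highest means.

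Over all 38 libraries HOXD held 44.2% to 56.3% of the summed HOX level per kb, with a median of 50.6%, and HOXA held 41.9% to 52.5%, with a median of 46.8%. HOXC held 0.720% to 2.57% and HOXB 0.435% to 1.12%. Positions 9 to 13 held 80.6% to 88.0% of the sum, positions 5 to 8 held 10.4% to 16.5% and positions 1 to 4 held 1.27% to 2.92%. Hoxd13 by itself held 28.2% to 45.1%, with a median of 36.5%. All of the 14 genes with a control mean of at least 1 CPM belonged to HOXA (8) or HOXD (6), and the highest control mean in HOXB or HOXC was 0.822 CPM.

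The filter on low counts was passed by 25 of the 39 genes. All 11 HOXA genes passed it, as did Hoxb2, Hoxb4 and Hoxb9, the HOXC genes Hoxc6, Hoxc8, Hoxc9, Hoxc10 and Hoxc11, and Hoxd8 to Hoxd13. By position, 6 of 12 genes at 1 to 4, 6 of 11 at 5 to 8 and 13 of 16 at 9 to 13 passed. The other 14 genes (Hoxb1, Hoxb3, Hoxb5, Hoxb6, Hoxb7, Hoxb8, Hoxb13, Hoxc4, Hoxc5, Hoxc12, Hoxc13, Hoxd1, Hoxd3 and Hoxd4) had 14 to 230 counts each over all 38 libraries and no more than 15 in any library. Hoxb2, which passed, had 220 counts. Changes in the 14 genes were not tested in the main fit. In RefSeq's annotation of GRCm38.p6 (mm10) the spans of 15 HOX genes overlap another HOX gene or a noncoding RNA of the clusters, such as Hoxd10 with Hoxd11 over 2744 bases and Hoxa11 with its antisense RNA Hoxa11os over 568 bases. The strand setting of the counting is not given in the sources used here, so reads of overlapping genes may be split between them.

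HOX levels were mostly lower with the cytokines than in the controls of the same time. Most calls were at the posterior genes that carried the expression, where high counts also make calls easier. With IL-1beta, 0 HOX genes were higher and 11 of the 25 lower at 4 h, where 15.5% of all tested genes were called higher and 17.2% lower. At 12 h 0 were higher and 10 lower, against 14.5% and 15% of all genes, and at 24 h 0 were higher and 5 lower, against 17% and 15.6%. After 72 h 2 were higher and 3 lower, against 19.3% and 19.7%, and the share of HOX genes called lower was then below that of all genes. With TNF-alpha 0 were higher and 8 lower at 4 h (all genes 10.9% and 10.6%), and 0 were higher and 9 lower at 12 h (14.6% and 13.8%). At 24 h 0 were higher and 5 lower (13.2% and 11.9%), and after 72 h 0 were higher and 7 lower (17.8% and 18.3%). In the 7 comparisons with 0 higher in edgeR, 0 HOX genes were higher at an unadjusted p under 0.05 and DESeq2 also called 0 higher. With library totals as the only scaling 1 was called higher with TNF-alpha at 72 h. The same control libraries serve both cytokines at each time, so the IL-1beta and TNF-alpha values are not independent of each other.

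The median log2 fold change of the 25 tested HOX genes with IL-1beta was -0.41 at 4 h, -0.43 at 12 h, -0.19 at 24 h and -0.15 at 72 h. With TNF-alpha it was -0.37, -0.44, -0.32 and -0.21 at the same times. The medians over all tested genes lay between -0.03 and 0.00. At 12 h with TNF-alpha 25 of 25 tested HOX genes had a log2 fold change below 0. At 4 h the summed HOX level was 89.8 to 99.2 CPM per kb in IL-1beta libraries and 90.1 to 94.8 in TNF-alpha libraries, against 117 to 127 in controls. The control at 0 h was at 80.0 to 84.0, so at 4 h the sum was above the start in all groups, and less so with the cytokines. At 12 h the summed HOX level was 75.1 to 82.3 CPM per kb in IL-1beta libraries and 81.1 to 84.0 in TNF-alpha libraries, against 111 to 114 in controls. The range at 72 h was 97.3 to 108 CPM per kb under IL-1beta and 78.9 to 90.0 under TNF-alpha, against 107 to 112 in controls. The IL-1beta range thus met the control range at 72 h, and the TNF-alpha range stayed below it.

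Over the 8 comparisons 58 values were called lower and 2 higher, in 19 of the 25 tested genes. The share of all tested genes called at least once was not computed, so the 19 has no baseline. Of the lower calls 46 were at positions 9 to 13, and 45 of these were in HOXA and HOXD. These positions held 13 of the 25 tested genes and 80.6% to 88.0% of the summed HOX level per kb. Calls come more readily at high counts, so the lower levels cannot be said to be particular to posterior genes. Hoxa2, Hoxa4, Hoxb2, Hoxb9, Hoxc9 and Hoxc11 were called in none of the 8. Leaving out 1 library moved the count of called genes by over 1.5 times in 2 of the comparisons. With IL-1beta at 4 h the count was 6 without control replicate a, 7 without control replicate b and 7 without IL-1beta replicate b. With IL-1beta at 72 h it was 3 without control replicate a, control replicate b or IL-1beta replicate b. With the misaligned 0 h column put back in the fit, the counts fell to 4, 6, 2 and 3 with IL-1beta at 4, 12, 24 and 72 h, and to 3, 6, 1 and 3 with TNF-alpha.

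**Figure D2:**
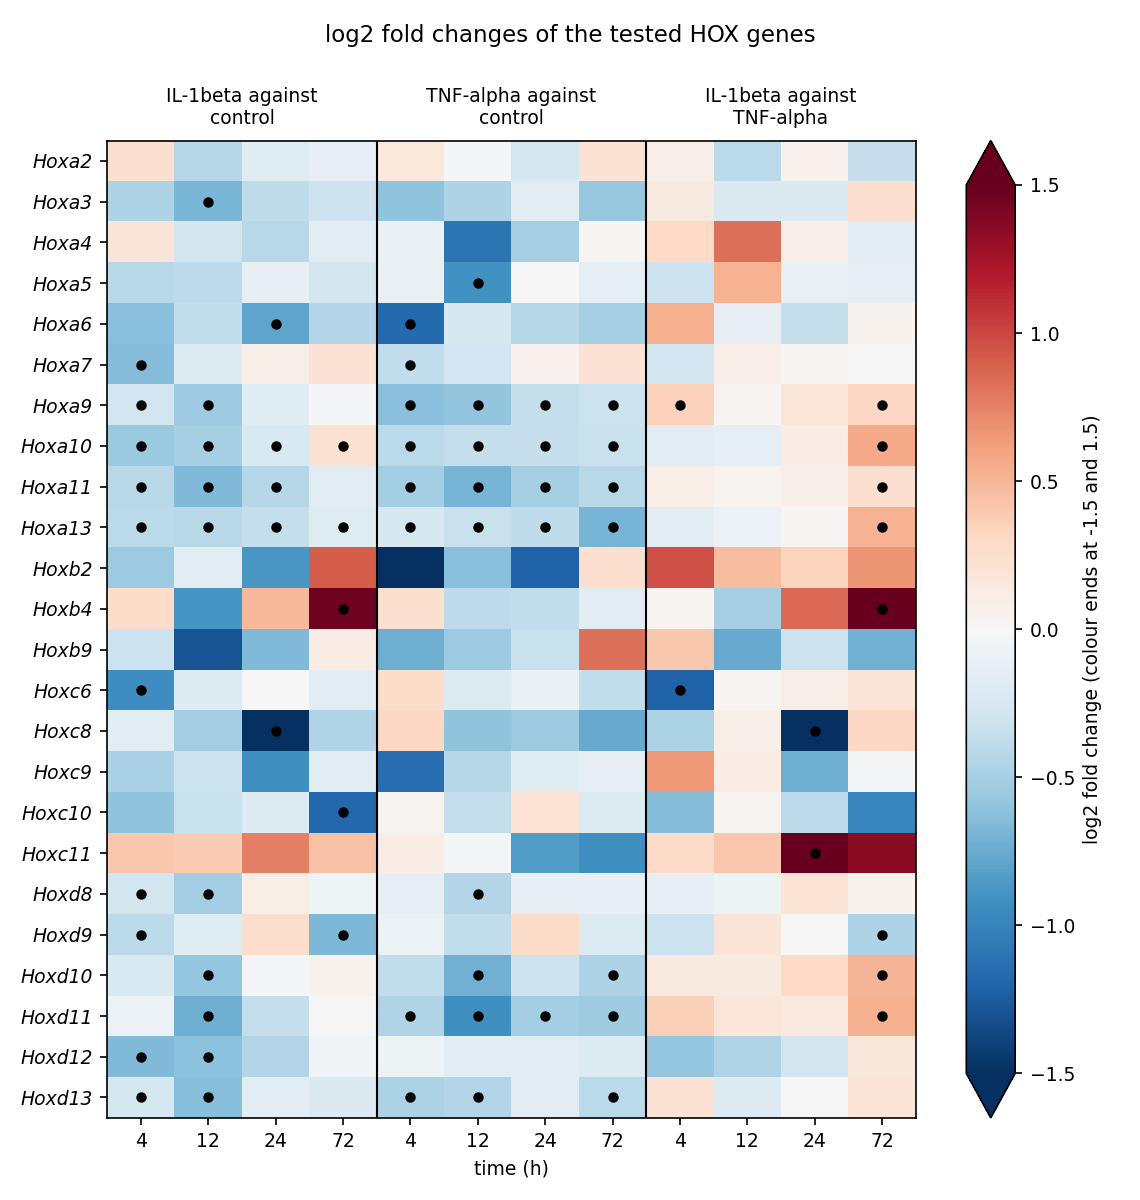
Log2 fold changes of 24 of the 25 tested HOX genes (rows) at 4, 12, 24 and 72 h (columns) for IL-1beta against control, TNF-alpha against control and IL-1beta against TNF-alpha. Black dots mark called genes, and the colour scale ends at -1.5 and 1.5. In the 8 columns against control the dots gather at Hoxa9, Hoxa10, Hoxa11, Hoxa13, Hoxd11 and Hoxd13, and all but 2 of the dots are at negative values.

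Hoxa13, a limb factor of the hand and foot, was called lower with both cytokines at every time. At 72 h it had 30.0, 32.6 and 30.0 CPM in TNF-alpha libraries and 46.7, 44.5 and 41.7 CPM in IL-1beta libraries, against 49.2, 51.7 and 49.4 CPM in controls. All TNF-alpha and all IL-1beta libraries lay below all controls, and the TNF-alpha libraries were the lowest. The log2 fold change with TNF-alpha was -0.24 ± 0.07 at 4 h, -0.33 ± 0.08 at 12 h, -0.38 ± 0.07 at 24 h and -0.70 ± 0.07 at 72 h (adjusted p = 1.15e-09 at 72 h). With IL-1beta it was -0.40 ± 0.07, -0.42 ± 0.08, -0.36 ± 0.07 and -0.18 ± 0.07 at the same times. The TNF-alpha effect differed between 12, 24 and 72 h (interaction adjusted p = 0.0338) and was 0.37 ± 0.10 more negative on the log2 scale at 72 h than at 12 h. Hoxa13 was the only HOX gene of 25 whose TNF-alpha effect passed this test, against 7.74% of all genes. That count was 0 without control 24 h replicate a, control 72 h replicate a or b, or TNF-alpha 72 h replicate a or c. The call with IL-1beta at 72 h (adjusted p = 0.0468) was lost without control replicate a or b or IL-1beta replicate b or c, with the even counts halved, and with the replicate letter as a block. The TNF-alpha call at 4 h was lost without control replicate a (or TNF-alpha replicate c), and against the control at 12 h.

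Hoxa10, which patterns the proximal limb, was lower with both cytokines early and parted between them late. At 4 h it had 32.0, 34.5 and 34.8 CPM with IL-1beta and 36.2, 38.7 and 37.8 CPM with TNF-alpha, against 50.3, 49.4 and 48.9 CPM in controls. No cytokine library reached a control, and the log2 fold changes were -0.55 ± 0.07 with IL-1beta (adjusted p = 1.05e-07) and -0.40 ± 0.07 with TNF-alpha. At 72 h Hoxa10 had 53.1, 50.6 and 51.1 CPM with IL-1beta and 36.9, 32.9 and 34.6 CPM with TNF-alpha, against 41.8, 43.1 and 47.0 CPM in controls. All IL-1beta libraries then lay above, and all TNF-alpha libraries below, the controls, with log2 fold changes of 0.23 ± 0.07 (adjusted p = 0.0081) and -0.34 ± 0.07 (adjusted p = 0.00023). The IL-1beta effect on Hoxa10 differed between 12, 24 and 72 h (interaction adjusted p = 2.90e-06) and was 0.73 ± 0.10 higher at 72 h than at 12 h. The higher call at 72 h was lost without control replicate a. The lower call with IL-1beta at 24 h (log2 fold change -0.23) was lost without control replicate a or IL-1beta replicate a. Against the control at 12 h the TNF-alpha value at 4 h was -0.11 and not called.

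Hoxa11, a factor of the middle segment of the limb, had 7 lower calls against control, none of which was lost in any fit that left out 1 library or under another alternative run. At 12 h it had 15.9, 14.9 and 17.4 CPM with IL-1beta and 15.6, 15.7 and 15.6 CPM with TNF-alpha, against 24.9, 26.2 and 25.1 CPM in controls. The cytokine libraries were close together and far below the controls. The log2 fold changes were -0.66 ± 0.08 with IL-1beta (adjusted p = 6.15e-08) and -0.70 ± 0.08 with TNF-alpha (adjusted p = 1.45e-08). At 4 and 24 h they were -0.41 ± 0.07 and -0.42 ± 0.08 with IL-1beta, and -0.51 ± 0.08 and -0.50 ± 0.08 with TNF-alpha. At 72 h the TNF-alpha value of -0.42 ± 0.08 was called and the IL-1beta value of -0.17 ± 0.08 was not. Hoxa9, on the anterior side of Hoxa10, was called lower in 6 comparisons. At 4 h it had 14.9, 13.03 and 14.3 CPM with IL-1beta and 11.1, 10.7 and 11.1 CPM with TNF-alpha, against 18.4, 15.6 and 16.8 CPM in controls, with no overlap. The TNF-alpha log2 fold changes were -0.63 ± 0.10, -0.59 ± 0.10, -0.36 ± 0.10 and -0.33 ± 0.10 at 4, 12, 24 and 72 h. With IL-1beta, Hoxa9 was called at 4 h (-0.29 ± 0.10) and 12 h (-0.55 ± 0.11), and the 4 h call was lost without control replicate a or IL-1beta replicate b.

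Hoxd13, the most abundant HOX mRNA per kb, was lower in 5 comparisons. At 12 h it had 64.7, 64.6 and 67.1 CPM with IL-1beta and 81.7, 67.9 and 75.6 CPM with TNF-alpha, against 106, 99.2 and 100.2 CPM in controls. No cytokine library reached the lowest control. The log2 fold changes were -0.64 ± 0.09 with IL-1beta (adjusted p = 8.11e-07) and -0.44 ± 0.09 with TNF-alpha (adjusted p = 0.000239). At 4 h Hoxd13 had 92.0, 111 and 102 CPM with IL-1beta and 93.9, 86.2 and 82.8 CPM with TNF-alpha, against 135, 121 and 110 CPM in controls. IL-1beta replicate b overlapped with control replicate c, and no TNF-alpha library did. The IL-1beta value at 4 h (-0.26 ± 0.09, adjusted p = 0.0198) was -0.16 without control replicate a and -0.17 without IL-1beta replicate a, and the call was lost in both of these and without control replicate b. The TNF-alpha value at 4 h was -0.48 ± 0.09, and against the control at 12 h it was -0.21 and not called. At 72 h TNF-alpha libraries had 90.0, 74.8 and 66.8 CPM, against 102, 105 and 99.8 CPM in controls, a log2 fold change of -0.40 ± 0.09.

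**Figure D3:**
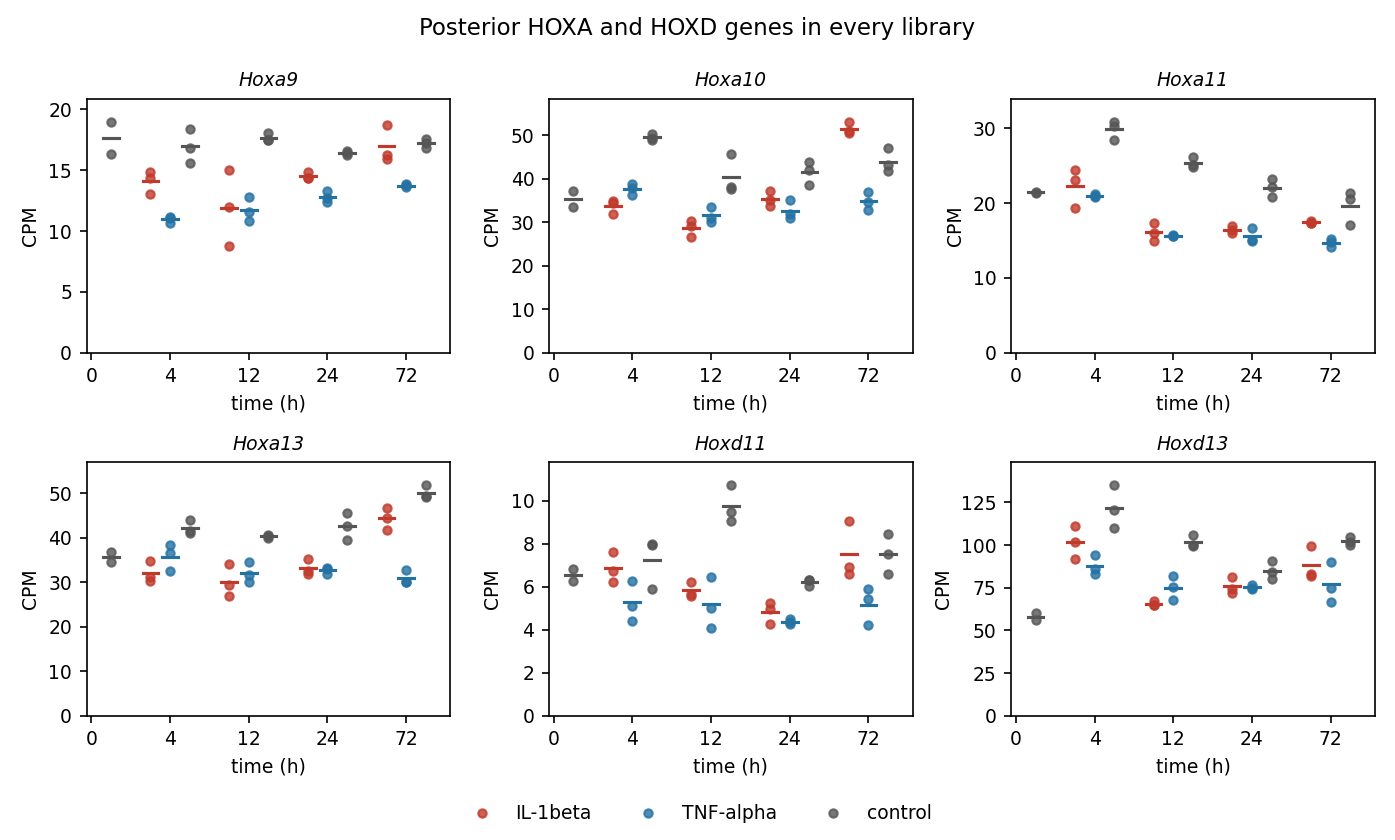
CPM of Hoxa9, Hoxa10, Hoxa11, Hoxa13, Hoxd11 and Hoxd13 in every mRNA library by time in hours, with points for libraries and bars for group means, IL-1beta left, TNF-alpha in the middle and control right at each time. At 12 h the cytokine libraries lie below the controls in all 6 panels, and at 72 h Hoxa10 has its IL-1beta libraries at 50.6 to 53.1 CPM, above the controls at 41.8 to 47.0 CPM.

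Lower calls of the other HOXD genes were spread over the 4 times. Hoxd11, which with Hoxa11 shapes the forearm, had 5.68, 6.25 and 5.58 CPM with IL-1beta and 4.10, 6.48 and 5.04 CPM with TNF-alpha at 12 h, against 9.47, 10.7 and 9.08 CPM in controls. The groups did not overlap, and the log2 fold changes were -0.74 ± 0.16 (adjusted p = 0.000387) and -0.92 ± 0.16 (adjusted p = 1.95e-05). With TNF-alpha it was also lower at 4, 24 and 72 h (-0.45 ± 0.16, -0.51 ± 0.16 and -0.54 ± 0.15). Its libraries overlapped at 4 h, and that call was lost without control replicate b or c or TNF-alpha replicate b or c. Hoxd8, used in the trunk and the early limb bud, had 15.8, 17.2 and 18.7 CPM with IL-1beta and 19.6, 18.9 and 16.1 CPM with TNF-alpha at 12 h, against 22.0, 24.9 and 27.3 CPM in controls. Again no library overlapped, with log2 fold changes of -0.52 ± 0.09 and -0.44 ± 0.09. Its other call, with IL-1beta at 4 h (-0.28 ± 0.09), was lost without control replicate a or b or IL-1beta replicate a or b.

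Hoxd10 was lower at 12 h with IL-1beta (-0.58 ± 0.21) and TNF-alpha (-0.72 ± 0.21), and at 72 h with TNF-alpha (-0.46 ± 0.18), where the libraries overlapped. The IL-1beta value was -0.38 and not called without control 12 h replicate a, and the call was also lost without IL-1beta replicate b or c. The TNF-alpha call at 12 h was lost without control replicate a. The call at 72 h was lost without control replicate a or b or TNF-alpha replicate b or c, with a value of -0.29 without TNF-alpha replicate b, with the even counts halved and with the replicate block. Hoxd9 was lower with IL-1beta at 72 h, with 3.43, 3.097 and 1.89 CPM against 3.77, 4.80 and 4.64 CPM in controls. No IL-1beta library reached a control, and the log2 fold change of -0.67 ± 0.17 was -0.43 without IL-1beta replicate c, still called. At 4 h the Hoxd9 value with IL-1beta was -0.41 ± 0.15, and the call held only without IL-1beta replicate a among the 6 fits that left out 1 library. Hoxd12 was lower with IL-1beta at 4 h (-0.66 ± 0.18) and 12 h (-0.61 ± 0.22), and the call at 12 h was lost without replicate a or b of either group.

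The promoter windows of 3 of these genes are shown because Hoxa13 and Hoxd13 head the family in level and Hoxa11 kept all its calls against control. Each is the 150 bases before the RefSeq start on GRCm38.p6 (mm10), 5′ to 3′ on the gene's strand, with motif matches in capitals.
Hoxa13, chr6:52260881-52261030, minus strand: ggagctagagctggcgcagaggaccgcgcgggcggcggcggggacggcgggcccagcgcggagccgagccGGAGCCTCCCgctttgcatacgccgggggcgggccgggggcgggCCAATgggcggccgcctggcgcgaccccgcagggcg
Hoxa11, chr6:52245811-52245960, minus strand: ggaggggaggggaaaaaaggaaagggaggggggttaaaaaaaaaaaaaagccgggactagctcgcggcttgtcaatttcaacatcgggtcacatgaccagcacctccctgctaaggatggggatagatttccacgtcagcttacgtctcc
Hoxd13, chr2:74668075-74668224, plus strand: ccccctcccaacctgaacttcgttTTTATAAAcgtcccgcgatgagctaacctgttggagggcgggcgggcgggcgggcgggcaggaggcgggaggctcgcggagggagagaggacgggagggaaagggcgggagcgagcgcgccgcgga
The motifs searched on both strands were the TATA box TATAAA, the CCAAT box, the motif CAATAAA of the type bound by the highest-numbered HOX and by CDX proteins, the PBX-HOX type TGATNNAT and the NF-kappaB consensus. NF-kappaB is a factor that both cytokines activate. Hoxa13 had CCAAT on the printed strand and an NF-kappaB match on the strand opposite to it, Hoxd13 had TATAAA on both strands at overlapping bases, and the Hoxa11 window had none of the 5. RefSeq gave 24 windows for 22 of the HOX genes. Of these 11 held CCAAT, against 24.5% of all 32851 windows, 3 held TATAAA (7.57%), 3 held TGATNNAT (4.12%), 1 held CAATAAA (2.43%) and 1 held the NF-kappaB consensus (4.60%). A match only describes the letters of the window.

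Outside the posterior genes few HOX values were called, and most of these rested on low counts. Hoxa6, a trunk gene, was lower with TNF-alpha at 4 h, with 0.483, 0.369 and 1.04 CPM against 1.31, 1.24 and 1.64 CPM in controls. All TNF-alpha libraries lay below all controls, with replicate c the nearest, and the log2 fold change was -1.17 ± 0.31 (adjusted p = 0.00622). That call was lost without TNF-alpha replicate a or b, and against the control at 12 h. Hoxb4, known for its part in blood stem cells and in the neck vertebrae, was higher with IL-1beta at 72 h, with 1.20, 1.48 and 0.943 CPM against 0.587, 0.0941 and 0.681 CPM in controls. No libraries overlapped and the log2 fold change was 1.45 ± 0.40 (adjusted p = 0.00353), but without control replicate b, the lowest, it was 0.93 and not called. These 2 genes are the ones that met the rule for naming. The genes described before and after them were chosen with their values in view.

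Hoxa7 was lower at 4 h with IL-1beta, with 6.42, 7.499 and 5.88 CPM against 11.1, 10.8 and 10.01 CPM in controls. The groups were well apart, with a log2 fold change of -0.65 ± 0.12 (adjusted p = 4.42e-05). With TNF-alpha at 4 h it had 7.72, 9.37 and 7.61 CPM and a log2 fold change of -0.37 ± 0.12, a call lost without control replicate a or b or TNF-alpha replicate a or c. Hoxc8, a trunk and forelimb gene, was at 0.221, 0.131 and 0.126 CPM with IL-1beta at 24 h, against 0.995, 0.579 and 0.474 CPM in controls, a log2 fold change of -2.06 ± 0.50. No library overlapped its controls and the call held whichever library was left out, at levels under 1 CPM.

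The following calls were each lost in at least 1 fit that left out a library. Hoxa5 was lower with TNF-alpha at 12 h (-0.91, lost without control replicate a), and Hoxa6 with IL-1beta at 24 h (-0.79, lost without control replicate b or c or IL-1beta replicate a or c). Hoxa3 was lower with IL-1beta at 12 h (-0.69, lost without control replicate b or c or IL-1beta replicate a or b), and its libraries overlapped. Hoxc6 was lower with IL-1beta at 4 h (-0.93), a call kept only without IL-1beta replicate a, with a value of -0.53 without IL-1beta replicate b. It was also lost with the even counts halved, with the replicate block and with DESeq2. Hoxc10 was lower with IL-1beta at 72 h (-1.18, lost without control replicate a or c or IL-1beta replicate a or b), with overlapping libraries at 0.0602, 0.277 and 0.429 CPM against 0.831, 0.329 and 0.743 CPM in controls.

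**Figure D4:**
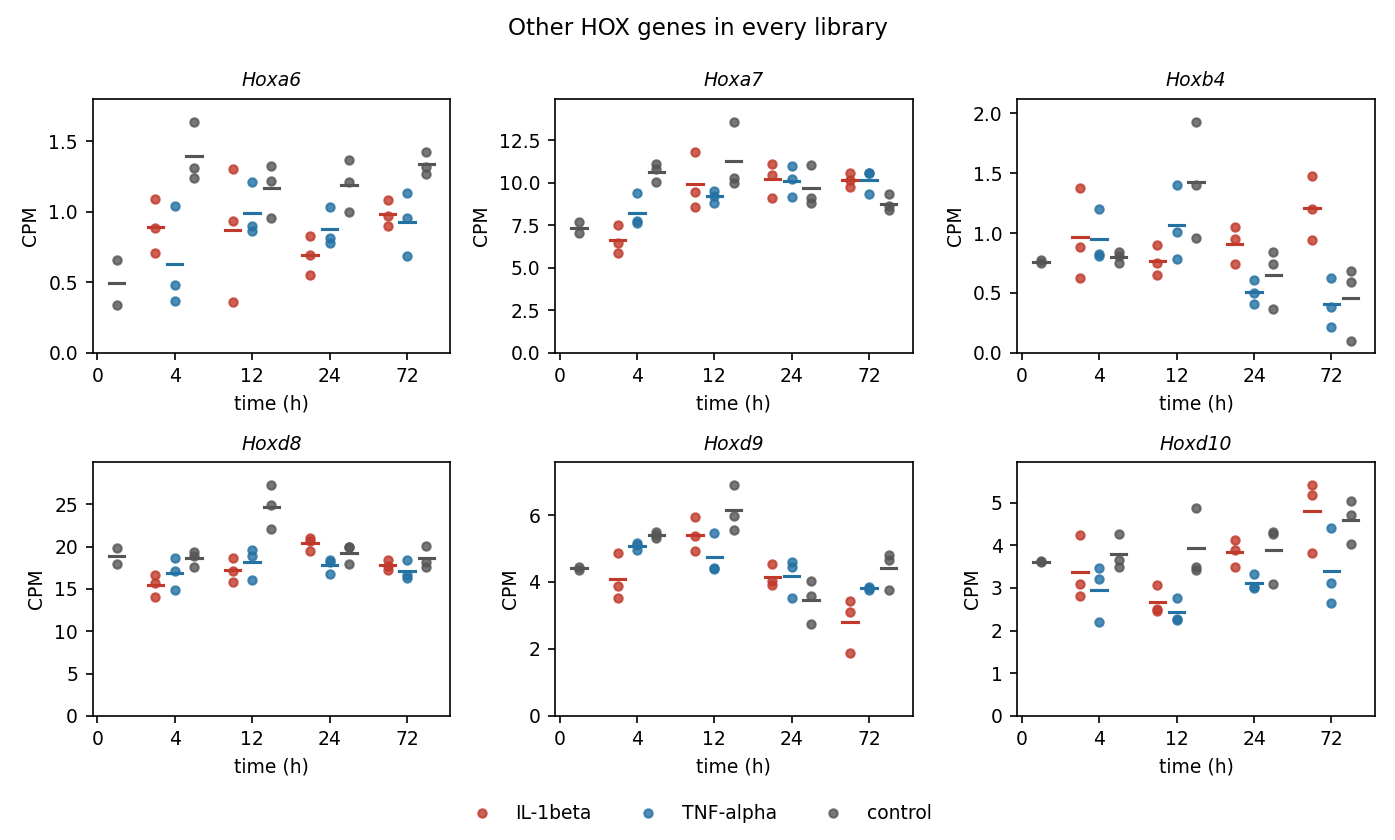
CPM of Hoxa6, Hoxa7, Hoxb4, Hoxd8, Hoxd9 and Hoxd10 in every mRNA library by time in hours, with points for libraries and bars for group means, IL-1beta left, TNF-alpha in the middle and control right at each time. The Hoxd8 controls at 12 h, at 22.0 to 27.3 CPM, lie above both cytokines, and at 72 h the Hoxb4 libraries with IL-1beta, at 0.943 to 1.48 CPM, lie above the other groups.

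Set against each other at 72 h, IL-1beta was higher than TNF-alpha in 7 HOX genes and lower in 1, against 19.4% and 20.4% of all genes. Calls over all genes were also most frequent at 72 h of the 4 times. Hoxa10 (log2 difference 0.57 ± 0.07, adjusted p = 2.6e-08), Hoxa13 (0.52 ± 0.07, adjusted p = 3.77e-07) and Hoxb4 (1.63, adjusted p = 0.000669) kept their calls whichever library was left out. Hoxb4 was at 1.20, 1.48 and 0.943 CPM with IL-1beta and 0.384, 0.216 and 0.625 CPM with TNF-alpha, with no overlap. The calls of Hoxa9 (0.31) and Hoxd11 (0.53) were lost without IL-1beta replicate b, that of Hoxa11 (0.25) without TNF-alpha replicate b, and that of Hoxd10 (0.51) without IL-1beta replicate a or b or TNF-alpha replicate b or c. The value of Hoxd9 (-0.47) was -0.23 and not called without IL-1beta replicate c, and not called without TNF-alpha replicate b. The count of 8 was 5 without TNF-alpha replicate b or IL-1beta replicate b.

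At 4 h 1 HOX gene was higher with IL-1beta than with TNF-alpha, Hoxa9 at 0.35, and 1 was lower, Hoxc6 at -1.21, against 5.71% and 6.66% of all genes. These 2 groups lay on opposite sides of the split of libraries described above, so a cytokine difference at 4 h cannot be told apart from it. At 12 h 0 were called higher and 0 lower, against 4.7% and 5.88% of all genes. At an unadjusted p under 0.05 there was 1 at 12 h, and DESeq2 called 0. At 24 h Hoxc11 was higher (1.59) and Hoxc8 lower (-1.52), against 9.31% and 10.8% of all genes. None of the 4 calls at 4 and 24 h held in every fit that left out a library. The count at 4 h was 0 without TNF-alpha replicate a or IL-1beta replicate c and 1 without TNF-alpha replicate b or IL-1beta replicate b. At 24 h it was 0 without TNF-alpha replicate b or c or IL-1beta replicate c and 1 without IL-1beta replicate a or b. With the even counts halved, with the replicate block or with DESeq2 it was 1 at each of these times.

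The IL-1beta effect differed between 12, 24 and 72 h for 8 of the 25 HOX genes, against 26.8% of all genes. These were Hoxa9, Hoxa10, Hoxa11, Hoxb4, Hoxd8, Hoxd9, Hoxd11 and Hoxd13. Their effect at 72 h minus that at 12 h was positive in 7 of the 8, from 0.42 ± 0.13 for Hoxd13 to 2.34 ± 0.56 for Hoxb4, and was -0.49 ± 0.23 for Hoxd9. Such a difference also holds changes in the controls. For Hoxd8 the controls went from 22.0 to 27.3 CPM at 12 h to 17.6 to 20.1 CPM at 72 h, while the IL-1beta libraries overlapped (15.8 to 18.7 and 17.2 to 18.4 CPM). For Hoxa10 the IL-1beta libraries rose, from 26.7 to 30.3 CPM at 12 h to 50.6 to 53.1 CPM at 72 h. Levels of chondrocyte markers moved over the same times. Their summed level was 67695 to 99868 CPM with IL-1beta, against 108199 to 130241 CPM in controls, at 12 h, and 15444 to 16768 CPM, against 75147 to 99805 CPM, at 72 h. With IL-1beta 4 of the 9 markers were lower and 1 higher at 12 h, and 9 of 9 were lower at 24 and 72 h. With TNF-alpha 8 of 9 were lower at 72 h, where the sum was 34162 to 40782 CPM. Fibroblast markers at 72 h summed to 22460 to 23570 CPM in IL-1beta libraries and 6939 to 7370 CPM in TNF-alpha libraries, against 12398 to 14330 CPM in controls. Of these 7 markers 5 were higher and 0 lower with IL-1beta, and 1 and 3 with TNF-alpha. Of the 5 endothelial markers listed 2 were tested, and 1 of these, Erg, was lower in all 8 cytokine comparisons. The rest did not pass the filter on low counts, so the endothelial sums rest mainly on the 2 tested genes. Whether the endothelial sums that follow reflect the number of endothelial cells was not tested. The endothelial sum was 133 to 147 CPM with IL-1beta and 138 to 163 CPM with TNF-alpha at 4 h, against 204 to 225 CPM in controls. At 12 h it was 82.6 to 85.4 CPM and 87.8 to 92.5 CPM, against 172 to 190 CPM, and at 72 h 76.9 to 83.6 CPM and 61.5 to 65.8 CPM, against 152 to 167 CPM. These groups did not overlap. Neural markers at 72 h summed to 41.2 to 47.1 CPM with IL-1beta and 52.2 to 69.5 CPM with TNF-alpha, against 106 to 119 CPM in controls, and leukocyte markers to 29.9 to 36.1 CPM and 46.4 to 66.3 CPM, against 25.3 to 27.7 CPM. At 4 h edgeR called 0 of the 9 chondrocyte markers with IL-1beta (2 at an unadjusted p under 0.05), against 15.5% of all genes higher and 17.2% lower. The part of these marker values in the HOX values was not tested.

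HOX levels also moved in the untreated cartilage. From 0 to 4 h 7 HOX genes were higher and 0 lower, against 10.2% of all genes in each direction. Hoxd13 had 135, 121 and 110 CPM at 4 h against 60.0 and 56.0 CPM at 0 h, a log2 difference of 1.07 (adjusted p = 4.48e-09). Hoxa10 (0.48), Hoxa11 (0.48), Hoxa13 (0.24), Hoxa7 (0.54), Hoxa6 (1.45) and Hoxa3 (0.84) were the other 6. The cytokine libraries at 4 h, at 82.8 to 111 CPM of Hoxd13, also lay above those at 0 h. Without control 0 h replicate c, which leaves 1 library at 0 h that is assumed to vary like the other groups, the calls of Hoxa3, Hoxa6, Hoxa7 and Hoxa13 were lost and the count was 3. The calls of Hoxa3 and Hoxa13 were also lost without control 0 h replicate a, that of Hoxa3 without control 4 h replicate c and that of Hoxa13 without control 4 h replicate a.

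Against the control at 12 h, 0 HOX genes were higher and 5 lower at 24 h (10.2% and 11.5% of all genes), and 1 was higher and 6 lower at 72 h (18.7% and 18.3%). The gene that rose by 72 h was Hoxa13, with 49.2, 51.7 and 49.4 CPM against 39.9, 40.3 and 40.5 CPM at 12 h, a log2 difference of 0.32 (adjusted p = 0.000785). Hoxa11 (-0.37), Hoxd8 (-0.41) and Hoxb4 (-1.68) fell by 72 h in every fit that left out a library. Hoxa7 (-0.35, lost without 72 h replicate a or c, and lost at -0.19 without 12 h replicate b), Hoxd9 (-0.48, lost without 12 h replicate c or 72 h replicate a) and Hoxd11 (-0.37, kept only without 72 h replicate a) were less steady. At 24 h Hoxd9 (-0.83) and Hoxd11 (-0.64) kept their calls in all such fits. The count at 24 h was 3 without 12 h replicate b, 2 without 12 h replicate c and 3 without 24 h replicate a.

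Beside the HOX genes, a neighbour of HOXD and an antisense RNA of HOXA were called lower most often. Evx2, a homeobox gene next to Hoxd13, was lower in all 8 cytokine comparisons. At 12 h it had 5.41, 5.995 and 6.23 CPM with IL-1beta and 6.21, 7.96 and 6.27 CPM with TNF-alpha, against 11.9, 12.7 and 13.7 CPM in controls, with no overlap. The Evx2 log2 fold changes were -0.60, -1.11, -1.002 and -0.74 with IL-1beta and -0.69, -0.91, -0.64 and -0.86 with TNF-alpha at 4, 12, 24 and 72 h, with standard errors of 0.09 to 0.11. Of the other 7 tested neighbours of the clusters between 0 and 3 were called in a comparison. Hoxa11os, the antisense RNA that overlaps Hoxa11, was lower with IL-1beta at 4 h (-0.59 ± 0.12) and 12 h (-0.51 ± 0.14). With TNF-alpha Hoxa11os was lower at all 4 times (-0.55, -0.61, -0.35 and -0.41). Without the strand setting, reads in the 568 bases that it shares with Hoxa11 cannot be told apart. Hottip, a noncoding RNA at the 5′ end of HOXA, was lower with TNF-alpha at 72 h, with 0.940, 0.649 and 1.25 CPM against 1.66, 1.98 and 2.10 CPM in controls (-1.05 ± 0.24), and with IL-1beta at 4 h (-0.71 ± 0.24). Of the 17 noncoding RNAs listed 6 were tested.

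The TALE cofactors, which bind DNA beside HOX proteins, moved in both directions. All 9 were tested. With IL-1beta 1, 2, 2 and 3 were higher at 4, 12, 24 and 72 h, and 4, 5, 3 and 1 were lower. With TNF-alpha 1, 0, 1 and 2 were higher, and 2, 3, 2 and 2 lower. For this list and those that follow, the shares of all tested genes with IL-1beta at 4, 12, 24 and 72 h were 15.5%, 14.5%, 17% and 19.3% higher and 17.2%, 15%, 15.6% and 19.7% lower. With TNF-alpha they were 10.9%, 14.6%, 13.2% and 17.8% higher and 10.6%, 13.8%, 11.9% and 18.3% lower. Meis2, a marker of the proximal limb, was lower with IL-1beta at 12 h (-0.52 ± 0.10) and higher at 72 h (0.65 ± 0.09), while Pknox2 was lower at 4 h (-1.25 ± 0.26) and 72 h (-1.27 ± 0.24).

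Of 17 genes of the retinoic acid pathway 14 were tested. In time order IL-1beta had 2, 4, 4 and 6 of them higher and 4, 6, 3 and 6 lower. TNF-alpha had 2 higher at each time, and 1, 6, 6 and 5 lower. Aldh1a2, which makes retinoic acid, was higher with TNF-alpha at 12 h, at a mean of 5.16 CPM against 0.129 CPM in controls (5.25 ± 0.52, adjusted p = 5.04e-10). Cyp26b1, which breaks retinoic acid down, was lower with IL-1beta at 72 h (-1.72 ± 0.17), at 7.96 CPM against 26.3 CPM. Rarg, the retinoic acid receptor gamma, was lower at 12 h with IL-1beta (-0.56 ± 0.08) and TNF-alpha (-0.55 ± 0.08).

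All 23 Polycomb genes listed were tested. In time order 4, 3, 2 and 4 were higher and 3, 3, 4 and 4 lower with IL-1beta, shares near or below those of all genes. Under TNF-alpha 3, 3, 2 and 3 were higher and 4, 7, 2 and 5 lower. Mtf2, a PRC2 subunit that brings the complex to CpG islands, was higher in all 8 comparisons, by 0.89, 0.82, 0.95 and 1.07 with IL-1beta and 0.44, 0.50, 0.38 and 0.34 with TNF-alpha (standard errors 0.06 to 0.07). Of the 10 trithorax genes and H3K27 demethylases listed, 5 were higher and 0 lower with IL-1beta at 4 h, and 4 and 0 with TNF-alpha. Kmt2a, which marks active HOX chromatin, was among them with IL-1beta at 0.38 ± 0.07. At 12 h 0 were higher and 1 lower with IL-1beta, and 0 and 3 with TNF-alpha. At 24 h 1 was higher and 0 lower with each, and at 72 h 3 and 0 with IL-1beta, and 3 and 2 with TNF-alpha.

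Genes that mark limb position were present beside the posterior HOX genes. Pitx1 and Tbx4, the selector genes of the hindlimb, were at 18.7 to 38.5 CPM and 12.5 to 17.4 CPM in the control libraries. Tbx5, that of the forelimb, was at 0.00 to 0.440 CPM and did not pass the filter. Of the 13 limb genes listed 11 were tested. The numbers higher with IL-1beta were 4, 4, 6 and 8 in time order, and those lower 5, 3, 1 and 1. For TNF-alpha they were 3, 3, 3 and 4 higher, and 1, 3, 1 and 1 lower. At 72 h with IL-1beta Hand2, a posterior limb bud gene, rose by 1.51 ± 0.11, Prrx1, of limb mesenchyme, by 0.80 ± 0.06, and Shox2, of the proximal limb, changed by -0.71 ± 0.10. Of 17 factors of head mesenchyme, which as a rule lacks HOX expression, 11 were tested, with 0 to 3 higher and 0 to 4 lower in a comparison. The 17 were expressed too, with a sum of 115 to 150 CPM in the control libraries. Alx4, of limb and skull mesenchyme, was lower at 12 h with IL-1beta (-0.58 ± 0.07) and TNF-alpha (-0.59 ± 0.07). None of the 6 ParaHox genes, the sister cluster of HOX, was tested, and their sum was at most 0.312 CPM.

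The HOX clusters encode miRNAs of the miR-10, miR-196 and miR-615 families, whose sequences are shown because pairs of them share a seed and differ at 1 base. All are from RefSeq on GRCm38.p6 (mm10), 5′ to 3′, with the seed (bases 2 to 8) in capitals.
miR-10b-5p, chr2:74726074-74726096, plus strand, in the spans of Hoxd3 and Hoxd4: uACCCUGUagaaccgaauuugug
miR-10a-5p, chr11:96317186-96317208, plus strand, in the span of Hoxb3 and between Hoxb5 and Hoxb4: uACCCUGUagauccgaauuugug
miR-196b-5p, chr6:52230129-52230150, minus strand, between Hoxa9 and Hoxa10: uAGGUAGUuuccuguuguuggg
miR-196a-5p, chr11:96265187-96265208, plus strand, between Hoxb13 and Hoxb9, and chr15:102973365-102973386, plus strand, between Hoxc10 and Hoxc9: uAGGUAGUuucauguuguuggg
miR-615-3p, chr15:103014969-103014990, plus strand, in the span of Hoxc5: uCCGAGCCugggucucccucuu
Counted from the 5′ end, miR-10b-5p and miR-10a-5p differ at A12U, and miR-196b-5p and miR-196a-5p at C12A. Both miR-196 members are known to target HOX mRNAs, Hoxb8 among them. A 1-base difference also means that reads with an error at that base could be given to the other member.

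In the 15 control small RNA libraries miR-10b-5p averaged 1918 CPM (range 1569 to 2253), miR-196b-5p 635 (557 to 722), miR-10a-5p 209 (153 to 304) and miR-196a-5p 42.5 (35.4 to 47.8). miR-615-3p averaged 5.97 CPM, miR-196a-2-3p 1.16, miR-196b-3p 0.997 and miR-10b-3p 0.497 CPM. These 8 were tested among 588 miRNAs, and miR-196a-1-3p, miR-10a-3p and miR-615-5p, at 0.300 to 0.371 CPM, were not. Levels of different miRNAs depend on ligation and are not compared. The genes whose spans hold miR-10b-5p (Hoxd3 and Hoxd4) and miR-10a-5p (Hoxb3) did not pass the filter in the mRNA libraries, while Hoxb4, the next gene beside miR-10a-5p, did.

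Few of the 8 tested miRNAs were called. With IL-1beta there were 0 at 4, 12 and 24 h and 1 at 72 h, against 0.85%, 2.72%, 3.91% and 13.4% of all miRNAs. With TNF-alpha there were 0 at 4, 12 and 24 h and 2 at 72 h, against 0.68%, 1.53%, 4.25% and 29.1%. At an unadjusted p under 0.05 there were 0, 3, 1 and 2 with IL-1beta and 1, 1, 0 and 2 with TNF-alpha. DESeq2 called 0 of them with IL-1beta at 72 h. With TNF-alpha at 72 h miR-10b-5p had 1860, 11244 and 5510 CPM, against 2253, 2149 and 2081 CPM in controls. TNF-alpha replicates b and c were far above all controls and replicate a was below them, and the log2 fold change was 1.52 ± 0.35 (adjusted p = 0.00148). miR-10a-5p moved with it, at 252, 1735 and 682 CPM against 304, 201 and 203 CPM (1.91 ± 0.45, adjusted p = 0.00184). Without TNF-alpha replicate b the values were 0.76 (adjusted p = 0.105) and 0.97 (adjusted p = 0.119), so both calls rested on that library. The 3 small RNA libraries highest in miR-10b-5p and miR-10a-5p (TNF-alpha 72 h replicates b and c and IL-1beta 12 h replicate b) also had the 3 lowest TMM factors of the assay, at 0.677, 0.773 and 0.829. The highest chi-square per degree of freedom between replicates of a group was 6510, between TNF-alpha 72 h replicates a and b, and the pairs of IL-1beta 12 h replicate b reached 3795 and 3855. The part of this in the miR-10 values was not tested. The second highest library for both was IL-1beta 12 h replicate b, at 6057 and 943 CPM, and the other IL-1beta libraries at 12 h were at 1875 and 2426 CPM for miR-10b-5p. The count at 12 h with IL-1beta was 1 without IL-1beta replicate a or c.

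miR-196a-5p was lower with IL-1beta at 72 h, with 40.0, 30.8 and 30.8 CPM against 38.9, 46.2 and 47.8 CPM in controls. IL-1beta replicate a overlapped with control replicate a. The log2 fold change was -0.39 ± 0.13 (adjusted p = 0.0413), and the call was lost without replicate b or c of either group. miR-196b-5p, from between Hoxa9 and Hoxa10, was not called in any comparison. At 12 h, when both of those genes were lower, it had 663, 893 and 639 CPM with IL-1beta and 573, 593 and 652 CPM with TNF-alpha, against 597, 630 and 570 CPM in controls.

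**Figure D5:**
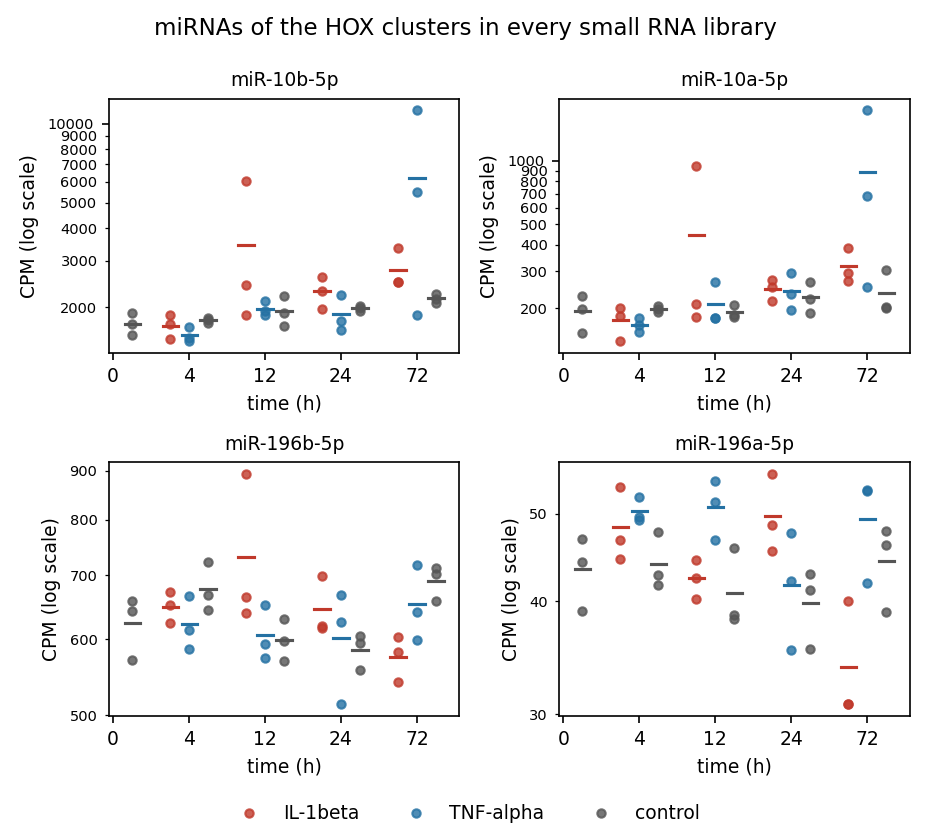
CPM on a log scale of miR-10b-5p, miR-10a-5p, miR-196b-5p and miR-196a-5p in every small RNA library by time in hours, with points for libraries and bars for group means, IL-1beta left, TNF-alpha in the middle and control right at each time. The highest miR-10b-5p points are TNF-alpha 72 h at 11244 CPM and IL-1beta 12 h at 6057 CPM, each 1 library of its group.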

How the data were processed

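Per the labels' protocols, RNA for mRNA libraries came from a Norgen kit and was prepared with Ribo-Zero Gold, and RNA for small RNA libraries came from the mirVana kit. Trimmomatic and cutadapt, the aligner STAR, the counter featureCounts and the build mm10 are named, per the submitters' processing notes. Their versions and annotation, and the strand setting, are details not given in the sources used here. Deposited values are whole-number counts per gene or mature miRNA, not normalized. Of the mRNA table, 2199 lines without a gene name (sum 15490) and the misaligned column of control 0 h replicate b were left out.

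Counts were filtered with filterByExpr, scaled by TMM and fitted with edgeR 4.0.16 (R 4.3.3, limma 3.58.1), with 1 quasi-likelihood model over all groups per assay and a threshold of 0.05 on the Benjamini-Hochberg adjusted p over all features. The scripts were checked on simulated data. The common biological coefficient of variation was 8.26% for mRNA and 19.3% for miRNA. No libraries of a group were copies (lowest chi-square per degree of freedom 3.39 and 32.0). Tables were made in Python 3.11.15 (pandas 2.3.3, with NumPy 2.4.6) and figures with matplotlib 3.10.9.

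Alternatives were DESeq2 1.42.0 (Wald test), DESeq2 size factors, library totals alone, no filter, a replicate block, the compared libraries alone, all 39 libraries, each library left out and, added after seeing the data, even counts halved. TNF-alpha at 4 h was also set against the control at 12 h, and the interactions were also tested over all 4 times. Named by rule were HOX genes called with an absolute log2 fold change of at least 1 against control and a mean of at least 1 CPM in a group. For the other lists counts are given, with 2 to 4 genes of small p. The HOX genes, the lists and the tests were chosen with earlier results of these data known. Values of a few genes that were tested are not reported here.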

Additional observations from a re-analysis of the deposited data

Results flagged for a closer look

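For 8 HOX genes the effect of IL-1beta differed between 12, 24 and 72 h by an interaction test in edgeR, adjusted over all genes. The adjusted p was 2.90e-06 for Hoxa10, 0.0011 for Hoxd8, 0.00411 for Hoxa11, 0.00466 for Hoxb4, 0.00675 for Hoxd13, 0.00771 for Hoxd9, 0.0169 for Hoxa9 and 0.0319 for Hoxd11. The IL-1beta effect at 72 h minus that at 12 h was 0.73 ± 0.10 for Hoxa10, 0.45 ± 0.13 for Hoxd8, 0.49 ± 0.11 for Hoxa11, 2.34 ± 0.56 for Hoxb4, 0.42 ± 0.13 for Hoxd13, 0.53 ± 0.15 for Hoxa9 and 0.73 ± 0.22 for Hoxd11. For Hoxd9 it was -0.49 ± 0.23, with an adjusted p of 0.121 for that pair of times. These differences hold changes in the controls as well as in the IL-1beta libraries. A called interaction was found in 32% of the 25 tested HOX genes, near the 26.8% of all tested genes.

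The effect of TNF-alpha differed between the 3 times for Hoxa13 (adjusted p = 0.0338), with a difference of -0.37 ± 0.10 between 72 and 12 h. This was 4% of the 25 tested HOX genes, below the 7.74% of all genes. From 12 to 72 h the Hoxa13 controls rose, while the TNF-alpha libraries of these times overlapped.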

How the results depend on the processing

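No called HOX or miRNA value changed direction under any alternative run. Of the 91 called HOX values 51 were kept in every fit that left out 1 library and 40 were lost in at least 1. With all 39 libraries 45 were lost, and with no low-count filter 15, library totals 11, the compared libraries alone 10, the replicate block 5, even counts halved 5, DESeq2 4 and DESeq2 size factors 1. Of the 8 calls with TNF-alpha at 4 h, 4 were lost against the control at 12 h. The cause was not tested. The 14 HOX genes with few counts did not pass the filter and were not tested in the main fit.

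With all 39 libraries the counts of called HOX genes were 4, 6, 2 and 3 with IL-1beta at 4, 12, 24 and 72 h, 3, 6, 1 and 3 with TNF-alpha, and 0, 1 and 4 for IL-1beta against TNF-alpha at 4, 24 and 72 h. In controls they were 2 at 24 h and 3 at 72 h against 12 h, and the interactions were 3 (IL-1beta) and 0 (TNF-alpha). Without the filter IL-1beta gave 3 at 24 h and 2 at 72 h, IL-1beta against TNF-alpha 1 at 4 h and 1 at 24 h, and the TNF-alpha interaction 0. The replicate block, DESeq2 and halved even counts each gave 1 at 4 h and 1 at 24 h for IL-1beta against TNF-alpha, and the compared libraries alone gave 0 at both. The replicate letters did not pair the libraries, since deviations were correlated over 0.1 in 3 of 44 mRNA pairs and 4 of 24 miRNA pairs, and 11 of 38 and 14 of 39 libraries were nearest to their own letter. The TNF-alpha interaction was 0 with library totals and 2 over all 4 times. For miRNAs the filter's removal gave 2 with IL-1beta at 12 h and 0 at 72 h. DESeq2, its size factors and library totals gave 0 with IL-1beta at 72 h, and the compared libraries alone gave 0 with TNF-alpha at 72 h.

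Leaving out 1 library gave 6 to 10, 7 to 9, 4 to 5 and 3 to 5 HOX calls for IL-1beta in time order (4, 12, 24 and 72 h), and 6 to 7, 8 to 11, 5 to 5 and 6 to 7 with TNF-alpha. For IL-1beta against TNF-alpha it gave 0 to 2, 0 to 0, 0 to 2 and 5 to 9. In controls it gave 3 to 7 at 4 h against 0 h, and 2 to 4 at 24 h and 5 to 6 at 72 h against 12 h. The interactions ranged over 6 to 8 (IL-1beta) and 0 to 1 (TNF-alpha). The miRNA counts ranged over 0 to 1 with IL-1beta at 12 and 72 h and 0 to 2 with TNF-alpha at 72 h.

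With library totals as the only scaling the median of all genes was -0.13 (IL-1beta at 4 h), 0.10 (TNF-alpha at 72 h), -0.11 (IL-1beta against TNF-alpha at 72 h) and 0.14 (control at 24 h against 12 h). The share of calls that were higher was then 28.4% against 47.4% for IL-1beta at 4 h, 40.5% against 50.7% for TNF-alpha at 4 h and 67.1% against 49.3% for TNF-alpha at 72 h, where 1 HOX gene was higher and 5 lower. It was 27.2% against 46.1% and 34.9% against 48.7% for IL-1beta against TNF-alpha at 4 h (0 HOX genes higher, 2 lower) and 72 h (4 higher, 2 lower). For the controls at 24 and 72 h against 12 h it was 77.1% against 47.2% (1 higher, 4 lower) and 65.4% against 50.5% (2 higher, 4 lower).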
